A study of Mus musculus with 8 samples.

Results

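A set of 10 p53 target genes that act in cell death were followed in mouse primordial germ cells, from which sperm and eggs descend, with and without the arginine methyltransferase gene Prmt5. The members are Eda2r, Bax, Bbc3, Pmaip1, Perp, Aen, Apaf1, Fas, Tnfrsf10b and Trp53inp1. Of these, 9 had counts, out of 21444 genes with a value, and all 9 passed the filter on low counts that left 10990 genes to test. No count was listed here for Fas, which encodes the best known death receptor, and it was not analysed. The cells came from embryos at embryonic day 11.5 on a mixed C57BL/6 and 129 background and were sorted by the dPE_Oct4 GFP reporter. The 4 Control libraries had the genotype Blimp1Cre;Prmt5flox/+ and the 4 Prmt5 KO libraries Blimp1Cre;Prmt5flox/flox, so both groups carried the same Cre transgene and reporter and the Control had 1 floxed copy. Cre under Blimp1 acts only in cells with Blimp1 activity, and no label ties a library to an embryo or litter. P-values here therefore reflect only library-to-library spread, part of which may be technical.

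The transcription factor p53 responds to DNA damage and other stress by switching on genes that halt division, repair DNA or kill the cell. Its death targets act at 2 entry points. Death receptors at the cell surface (Fas and Tnfrsf10b) signal through adaptor proteins to caspases, and the related Eda2r works through TRAF adaptors, while BAX and the BH3-only proteins PUMA (Bbc3) and NOXA (Pmaip1) open the mitochondrial outer membrane, after which APAF1 assembles the caspase-activating apoptosome. Germ cells are removed by p53-dependent death when their genomes are damaged, and embryonic day 11.5 falls in the period when they erase most of their DNA methylation.

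Gene counts, with 1 transcript per gene, summed to between 1811428 and 6549504 per library. Over all transcripts the sums ran from 4141854 to 14860645. Prmt5 was at 89.4, 171, 172 and 118 CPM (read counts normalised by effective sequencing depth) in Control 1 to 4, against 39.9, 40.5, 35.3 and 26.4 in Prmt5 KO 1 to 4. Every Prmt5 KO library lay below every Control library (log2 fold change -1.95, edgeR adjusted p = 0.0389), and part of the Prmt5 RNA remained. The adjusted call for Prmt5 held in 8 of 21 alternatives and its direction in all 21; it was lost on leaving out any 1 library other than Control 1. All 14 germ cell markers examined were tested, with a median log2 fold change of 0.04 and the receptor gene Kit the most abundant at 1005 ± 102 and 1060.0 ± 69.2 CPM (SD, n = 4 each). Prmt5 KO 1 stood apart by 13 markers of somatic gonad and mesonephros, whose summed level was 773 CPM there and between 139 and 217 in the other 7 libraries. Mfge8 alone was between 114 and 180 CPM in every library and made up most of the sum in those 7. Prmt5 KO 4 lay apart on the first axis of multidimensional scaling, at -2.69 where the others lay from 0.21 to 0.86. In bulk libraries a change in the share of cells with a transcript and a change in transcript per cell cannot be told apart.

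Eda2r, Perp, Aen, Trp53inp1 and Apaf1 stood higher in Prmt5 KO, with fitted fold differences from 1.74 for Aen to 4.88 for Eda2r, while Tnfrsf10b, Bax and the BH3-only genes Bbc3 and Pmaip1 had intervals that spanned 0 on the log2 scale. In edgeR's quasi-likelihood test, adjusted over all genes, 0 of the 9 members passed 0.05, where 0.0273% of all genes did in either direction and 0.0182% as higher. At an unadjusted p under 0.05, 5 of the 9 were higher and 0 lower, beside 4.47% of all genes that were higher, 3.69% that were lower and 8.15% in either direction. In 3 of the 9 all Prmt5 KO libraries lay above all Control libraries, against 2.63% of all genes, and in 0 of the 9 all lay below, against 2.27%. For 6 of the 9 every Prmt5 KO library lay above the Control mean, which held for 10.2% of all genes. The median log2 fold change was 0.80 over the 9 members and 0.03 over all genes, and 8 of the 9 were above 0 against 52.7% of all genes. A log2 fold change above 0.8 was reached by 5 of the 9 and by 8.72% of all genes. DESeq2 called Eda2r, Perp and Trp53inp1, where it called 0.974% of all genes, edgeR with no filter called Eda2r alone (0.0326% of all genes), and limma voom called 0 members (0.0091% of all genes). These members were chosen with earlier results of the same libraries known, so the counts describe them and do not test the set.

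**Figure D1:**
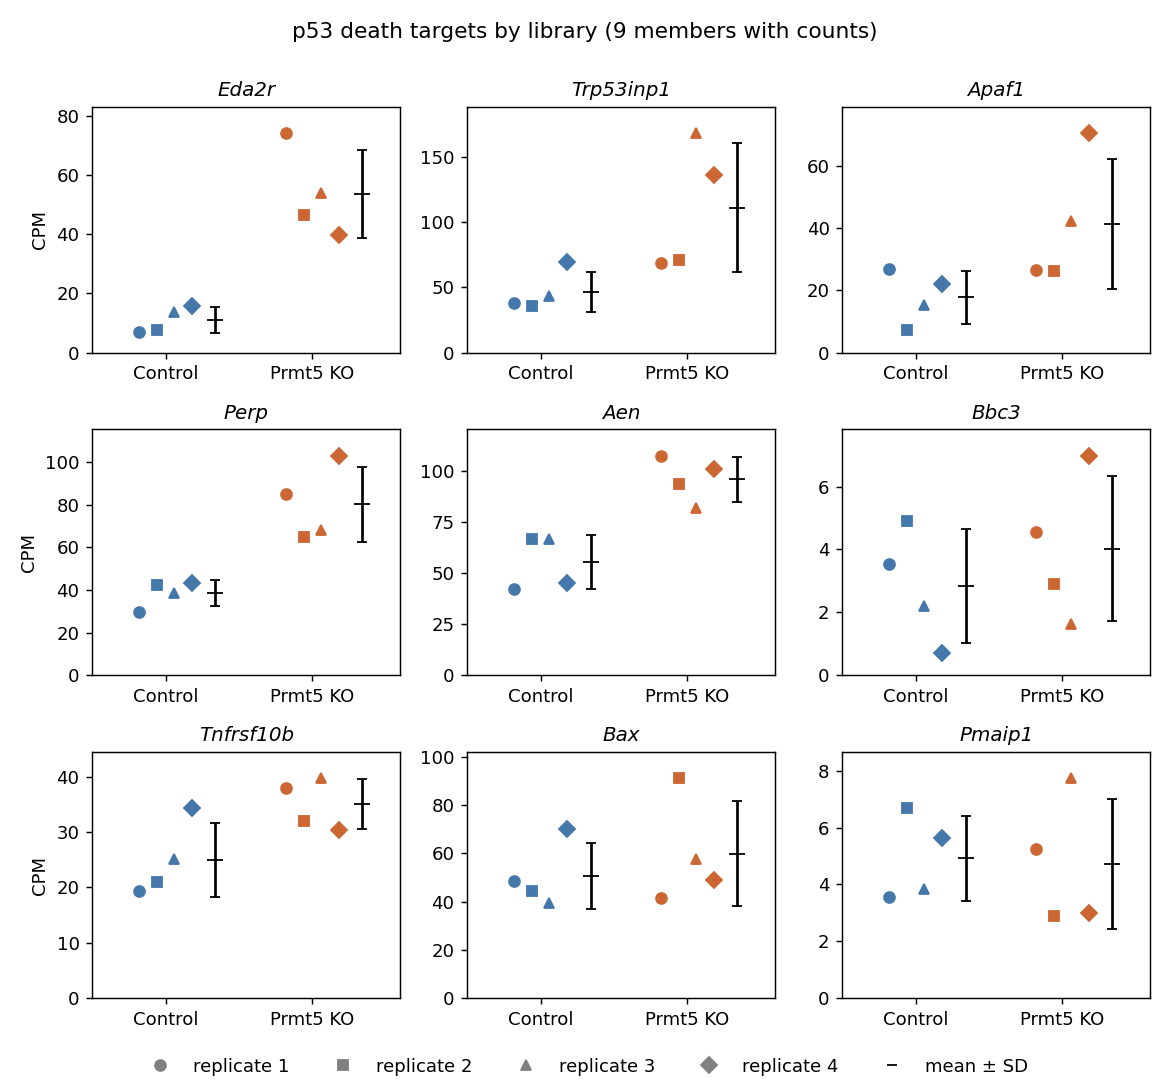
Level of each of the 9 members with counts in CPM (y axis, from 0, a separate scale per gene) in the 4 Control (blue) and 4 Prmt5 KO (orange) libraries, with marker shapes for replicate numbers and black bars for mean ± SD. Eda2r, Perp and Aen have no overlap between the groups, while Bax, Bbc3 and Pmaip1 overlap.

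The DNA just upstream of Eda2r, Apaf1 and Bax, and an exonic stretch at the start of Aen, is shown because p53 acts by binding a short palindromic element, and these genes differ in whether a match lies near the start of transcription. RefSeq promoter windows of 300 bases (250 before to 50 after a start, build GRCm38.p6) were found for 6 of the 10 members: Eda2r, Apaf1, Bax, Aen, Bbc3 and Fas. They were searched for the consensus p53 half-site, a 10-base pattern that reads the same on both strands. A match was present in 3 of the 9 windows of these members (1 of Bax and 2 overlapping windows of Aen, which share 1 match) and in 8.36% of all 32851 promoter windows. Paired half-sites with a spacer of at most 13 bases were in 0.0731% of all windows and in no window of a member. Below, bases are written 5′ to 3′ on the strand of the gene, exon bases are left out except for Aen, and capitals mark the half-site. The Eda2r stretch is chrX:97377217-97377459, that of Apaf1 is chr10:91082771-91082939 and that of Bax is chr7:45466899-45467148, all on the minus strand. For Aen the 30 bases around the match are chr7:78895927-78895956, on the plus strand.
Eda2r: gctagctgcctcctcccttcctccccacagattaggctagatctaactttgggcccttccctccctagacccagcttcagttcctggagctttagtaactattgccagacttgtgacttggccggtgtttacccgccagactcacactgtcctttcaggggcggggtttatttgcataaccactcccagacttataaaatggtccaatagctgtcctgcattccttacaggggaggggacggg
Apaf1: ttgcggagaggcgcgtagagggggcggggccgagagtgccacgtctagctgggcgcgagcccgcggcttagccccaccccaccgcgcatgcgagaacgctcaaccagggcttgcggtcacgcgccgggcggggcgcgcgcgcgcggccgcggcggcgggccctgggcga
Bax: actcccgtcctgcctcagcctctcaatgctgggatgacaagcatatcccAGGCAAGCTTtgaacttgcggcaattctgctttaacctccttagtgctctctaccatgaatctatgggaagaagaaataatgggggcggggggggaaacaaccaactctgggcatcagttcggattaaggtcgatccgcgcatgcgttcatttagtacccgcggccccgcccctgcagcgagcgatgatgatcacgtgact
Aen: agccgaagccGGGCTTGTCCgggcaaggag
The half-site of Bax began 201 bases before the start, and that of Aen began at base 11 from the upstream of its 2 RefSeq starts. The GENCODE annotation to which transcripts were matched begins Aen further upstream, at 78895854. Eda2r, the member with the widest difference, had no match in its window and Bax, whose groups overlapped, had one. Aen, whose groups did not overlap, also had a match, and Apaf1 and Bbc3, whose groups overlapped, had none. A match describes these letters only, and no binding was measured here.

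Among the receptors, Eda2r and Tnfrsf10b could be measured. Eda2r (ENSMUSG00000034457, GRCm38 chromosome X, 97333840 to 97377216, minus strand) encodes the X-linked receptor for a form of ectodysplasin. It was at 6.93, 7.59, 13.7 and 15.7 CPM in Control 1 to 4, against 74.1, 46.5, 54.0 and 39.6 CPM in Prmt5 KO 1 to 4. The lowest Prmt5 KO library was thus above the highest Control library. The mean was 10.97 ± 4.37 CPM across Control and 53.6 ± 14.9 CPM across Prmt5 KO (SD, n = 4 each), a log2 fold change of 2.29 with a 95% interval from 1.43 to 3.15. It ranked 5 of 10990 by unadjusted p and missed the threshold in edgeR (adjusted p = 0.121), while it passed in DESeq2 (adjusted p = 7.67e-06) and in edgeR with no filter on low counts (adjusted p = 0.0279). Prmt5 KO 1, the library with somatic gonad RNA, was the highest for Eda2r, and without it the log2 fold change was 2.09, and the groups still did not overlap.

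Eda2r was read from 3 transcripts with a mean of at least 10 counts. The full coding transcript Eda2r-201, of 4752 bases and 8 exons, gave the values above. Eda2r-203, annotated as having a retained intron, was at 2.36 ± 0.826 CPM across Control and 9.30 ± 5.30 CPM across Prmt5 KO (SD, n = 4 each), or 23.1% ± 9.22 and 17.0% ± 9.26 of the full transcript. Its share overlapped between the groups, ranging from 13.5% to 35.3% in Control and from 6.29% to 28.4% in Prmt5 KO. The shorter coding transcript Eda2r-202 was scarce, from 0 to 0.528 CPM in Control and from 0.249 to 6.70 CPM in Prmt5 KO. The transcripts share exons, so the same reads may be counted in more than 1 of them. Of the sex-linked genes, Xist, which coats the inactive X chromosome, was at 1.10 to 4.75 CPM in Control and 2.49 to 8.95 CPM in Prmt5 KO, and Ddx3y, Eif2s3y and Uty of the Y chromosome were each below 1 CPM in every library. The sex of the embryos is not in the labels, and its part in the level of Eda2r was not tested.

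Tnfrsf10b (ENSMUSG00000022074, GRCm38 chromosome 14, 69767472 to 69784411, plus strand) encodes the mouse receptor for the death ligand TRAIL. It was at 19.3, 21.0, 25.2 and 34.3 CPM in Control 1 to 4, against 38.0, 32.0, 39.7 and 30.4 CPM in Prmt5 KO 1 to 4. All 4 Prmt5 KO libraries lay above the Control mean of 24.9 ± 6.72 CPM (SD, n = 4), but Control 4 exceeded 2 of them. The log2 fold change was 0.49, with a 95% interval from -0.24 to 1.22, and did not pass (edgeR adjusted p = 0.756). Leaving out Control 4 separated the groups and gave a log2 fold change of 0.69. In that fit 4.03% of all genes were higher without overlap.

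The proteins that work on the receptors' signal showed no called gene. Of 12 ligands, adaptors and proximal proteases, 8 were tested, 0 passed (0.0273% of all genes), and the median log2 fold change was -0.13 against 0.03 over all genes. At an unadjusted p under 0.05, 1 of the 8 was lower (3.69% of all genes). Casp8, the protease that death receptors activate first, was at 6.12 ± 4.41 CPM across Control and 1.21 ± 1.15 CPM across Prmt5 KO (SD, n = 4 each), with a log2 fold change of -2.26 (edgeR adjusted p = 0.558). Casp8 was scarce and its groups overlapped, from 0.528 to 10.7 CPM in Control and from 0.249 to 2.83 CPM in Prmt5 KO. Traf6, an adaptor of the receptor family to which EDA2R belongs, was at a log2 fold change of -0.91 (edgeR adjusted p = 0.771).

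The mitochondrial arm gave no separated member. Bax (ENSMUSG00000003873, GRCm38 chromosome 7, 45461697 to 45466898, minus strand) encodes the pore-forming protein of the outer membrane. It was at 48.5, 44.2, 39.5 and 70.2 CPM in Control 1 to 4, against 41.5, 91.1, 57.7 and 49.1 CPM in Prmt5 KO 1 to 4. The groups overlapped, and the highest value came from Prmt5 KO 2 alone. Its log2 fold change was 0.24, with a 95% interval from -0.44 to 0.92, or between 0.735 and 1.89 times the Control level (edgeR adjusted p = 0.905). Without Prmt5 KO 2 it was -0.034.

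The BH3-only genes were too scarce to place. Bbc3 (ENSMUSG00000002083, GRCm38 chromosome 7, 16308393 to 16318205, plus strand), which encodes PUMA, had 40 counts over the 4 Control libraries and 81 over the 4 Prmt5 KO libraries. It was at 3.55, 4.91, 2.19 and 0.704 CPM in Control 1 to 4, against 4.56, 2.91, 1.64 and 6.98 CPM in Prmt5 KO 1 to 4. The log2 fold change was 0.51, with a 95% interval from -1.09 to 2.11 (edgeR adjusted p = 0.917). Pmaip1 (ENSMUSG00000024521, GRCm38 chromosome 18, 66458533 to 66465565, plus strand), which encodes NOXA, had 75 and 110 counts. It was at 3.55, 6.70, 3.84 and 5.63 CPM in Control 1 to 4, against 5.23, 2.91, 7.74 and 2.99 CPM in Prmt5 KO 1 to 4, with a log2 fold change of -0.05 and a 95% interval from -1.42 to 1.31 (edgeR adjusted p = 0.991). The groups overlapped for both genes, and at this depth a difference of 2-fold in either direction lay within the intervals.

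Apaf1 (ENSMUSG00000019979, GRCm38 chromosome 10, 90989311 to 91082770, minus strand) encodes the scaffold of the apoptosome. It was at 26.9, 7.14, 15.4 and 22.0 CPM in Control 1 to 4, against 26.5, 26.2, 42.4 and 70.5 CPM in Prmt5 KO 1 to 4. Prmt5 KO 1 and 2 were just below Control 1, and the highest values were those of Prmt5 KO 3 and 4. The mean was 17.8 ± 8.55 CPM across Control and 41.4 ± 20.8 CPM across Prmt5 KO (SD, n = 4 each), a log2 fold change of 1.19 with a 95% interval from 0.18 to 2.21 (edgeR adjusted p = 0.541). Its unadjusted edgeR p of 0.0250 moved to 0.0974 without Prmt5 KO 4, to 0.0627 without Control 2 and to 0.0582 without Control 3. It was 0.179 without both Control 2 and 3, 0.0873 without both Prmt5 KO 1 and 4, and 0.0662 in limma voom. The log2 fold change without Prmt5 KO 4 was 0.81. Apaf1-201 and Apaf1-202, coding transcripts of 27 exons, had the same counts in all 8 libraries. The shorter 27-exon transcript Apaf1-208 was at 50.6% ± 7.80 of that level across Control and 59.6% ± 20.1 across Prmt5 KO (SD, n = 4 each).

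Partners of the mitochondrial arm gave no call. Of 14 genes on that list 10 were tested and 0 passed in edgeR (0.0273% of all genes). The median log2 fold change was -0.18, 2 of the 10 were above 0 (52.7% of all genes), and 2 were lower at an unadjusted p under 0.05 (3.69% of all genes). The summed level of the list ran from 527 to 576 CPM in Control and from 416 to 454 CPM in Prmt5 KO, without overlap. Diablo, whose protein blocks inhibitors of caspases, was at 125 ± 23.7 CPM across Control and 56.2 ± 26.0 CPM across Prmt5 KO (SD, n = 4 each; log2 fold change -1.15, edgeR adjusted p = 0.418). Bcl2l2, a survival gene of the BCL2 family, was at a log2 fold change of -1.73 (edgeR adjusted p = 0.576). The lowest Diablo value, 17.2 CPM, was that of Prmt5 KO 4. Exons of Diablo overlap B3gnt4 on the opposite strand and those of Bcl2l2 overlap Gm20521 on the same strand. With the counting strand not given in the sources used here, both values are uncertain.

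**Figure D2:**
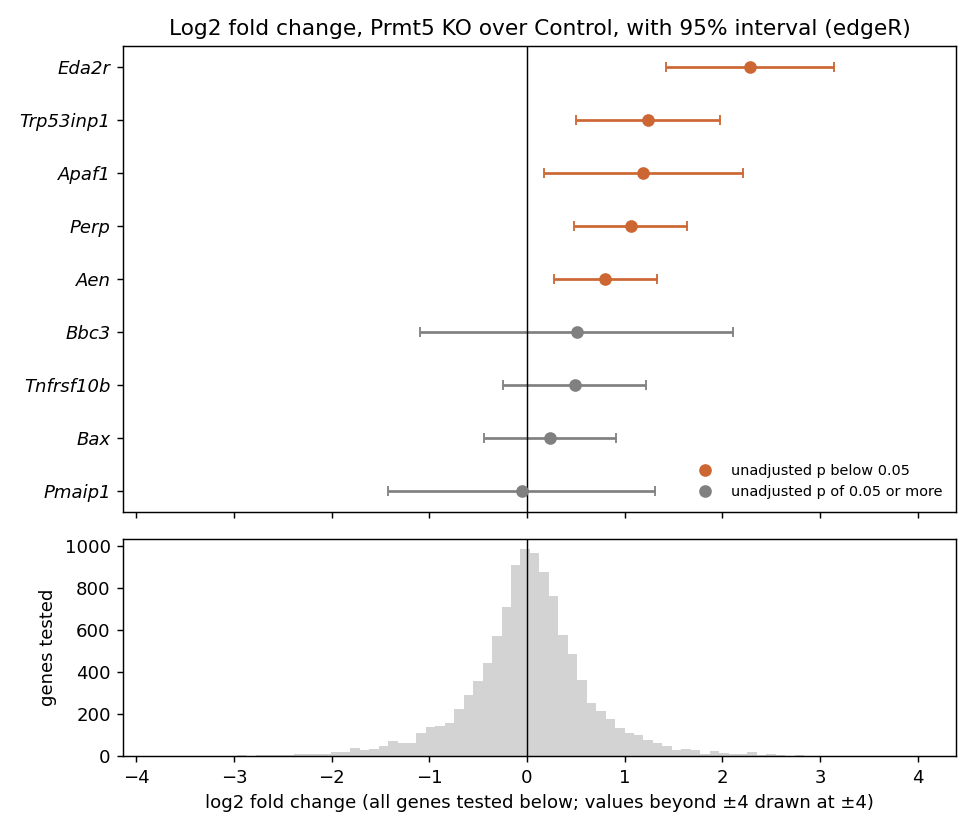
Upper panel: log2 fold change of Prmt5 KO over Control (x axis) for each member, with 95% intervals from the edgeR fit, in orange where the unadjusted p was below 0.05. Lower panel: the distribution of the same value over all 10990 genes tested; the 5 orange members lie between 0.80 and 2.29, to the right of the bulk of genes.

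Perp (ENSMUSG00000019851, GRCm38 chromosome 10, 18845020 to 18857073, plus strand) encodes a tetraspan membrane protein that p53 induces in dying cells and that also takes part in desmosomes. It was at 29.7, 42.4, 38.4 and 43.3 CPM in Control 1 to 4, against 85.1, 64.7, 68.1 and 103 CPM in Prmt5 KO 1 to 4. The groups did not overlap, and the Prmt5 KO libraries were spread more widely than the Control libraries. The mean was 38.5 ± 6.18 CPM across Control and 80.2 ± 17.6 CPM across Prmt5 KO (SD, n = 4 each), a log2 fold change of 1.06 with a 95% interval from 0.48 to 1.64. It missed the threshold in edgeR (adjusted p = 0.276) and passed in DESeq2 (adjusted p = 0.0189). Perp has 1 annotated transcript and no exon shared with another gene, so its value did not depend on the choice of transcript.

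Aen (ENSMUSG00000030609, GRCm38 chromosome 7, 78895854 to 78911209, plus strand) encodes an exonuclease that enters the nucleolus and nucleus and cuts DNA during apoptosis. It was at 42.4, 66.5, 66.9 and 45.2 CPM in Control 1 to 4, against 107, 93.8, 81.7 and 101 CPM in Prmt5 KO 1 to 4. Again all Prmt5 KO libraries lay above all Control libraries. The mean was 55.3 ± 13.3 CPM across Control and 95.9 ± 10.98 CPM across Prmt5 KO (SD, n = 4 each), a log2 fold change of 0.80 with a 95% interval from 0.27 to 1.33 (edgeR adjusted p = 0.409). The transcript with the most reads, Aen-204, is annotated as non-coding. The coding transcript Aen-203 was at 54.2 ± 13.9 CPM across Control and 86.3 ± 12.9 CPM across Prmt5 KO (SD, n = 4 each). With coding transcripts used for every gene, an alternative chosen after seeing the data, the log2 fold change of Aen was 0.68 and its groups still did not overlap.

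Trp53inp1 (ENSMUSG00000028211, GRCm38 chromosome 4, 11156431 to 11174379, plus strand) encodes a stress-induced protein that promotes p53 activity and autophagy. It was at 38.4, 35.7, 43.3 and 69.1 CPM in Control 1 to 4, against 68.4, 70.9, 168 and 136 CPM in Prmt5 KO 1 to 4. The groups met at 1 point, since Control 4 was just above Prmt5 KO 1. The mean was 46.6 ± 15.3 CPM across Control and 111 ± 49.4 CPM across Prmt5 KO (SD, n = 4 each), a log2 fold change of 1.24 with a 95% interval from 0.51 to 1.98. It did not pass in edgeR (adjusted p = 0.317) and passed in DESeq2 (adjusted p = 0.0322), and without Prmt5 KO 3 the log2 fold change was 0.97. The long coding transcript Trp53inp1-201 held 99.4% ± 0.843 of the counts of the one used across Control and 99.4% ± 0.506 across Prmt5 KO (SD, n = 4 each).

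The members did not share an order among the Prmt5 KO libraries. Prmt5 KO 1 was highest for Eda2r and Aen and lowest for Bax and Trp53inp1. Prmt5 KO 4 was highest for Perp, Apaf1 and Bbc3 and lowest for Eda2r and Tnfrsf10b. Prmt5 KO 3 was highest for Trp53inp1, Tnfrsf10b and Pmaip1, and Prmt5 KO 2 for Bax. The ratio of the highest to the lowest Prmt5 KO library ran from 1.31 for Tnfrsf10b and 1.31 for Aen up to 2.70 for Apaf1 and 4.26 for Bbc3. The summed level of the 9 members was 219, 236, 249 and 306 CPM in Control 1 to 4 and 451, 431, 521 and 540 CPM in Prmt5 KO 1 to 4.

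**Figure D3:**
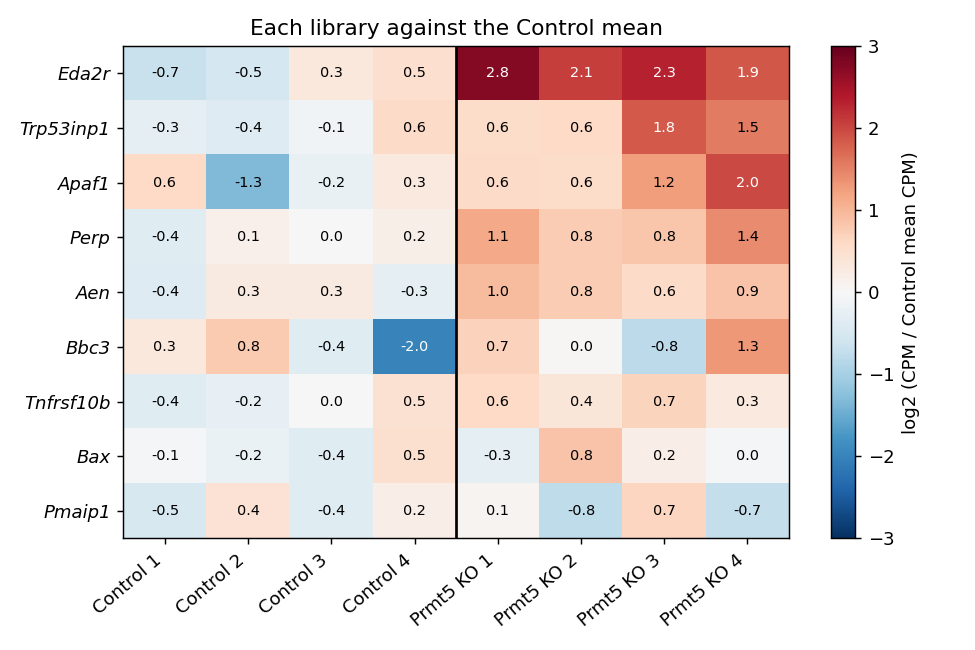
Log2 of each library's CPM over the mean of the 4 Control libraries (colour and number in each cell) for the 9 members (rows) in the 8 libraries (columns). The top 5 rows and Tnfrsf10b are above 0 in all Prmt5 KO libraries, led by Eda2r at 2.8 in Prmt5 KO 1, and the order of the libraries differs from row to row.

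Levels were compared between genes only per kilobase of the transcript used, a scale that assumes even coverage along a transcript. In Control, Bax stood first at 58.4 ± 15.6 CPM per kilobase, followed by Perp at 19.7 ± 3.17, Aen at 12.5 ± 3.00, Trp53inp1 at 8.59 ± 2.82, Tnfrsf10b at 7.85 ± 2.11, Apaf1 at 2.71 ± 1.30, Eda2r at 2.31 ± 0.919, Pmaip1 at 1.81 ± 0.548 and Bbc3 at 1.57 ± 0.995 (SD, n = 4). The ranges of Aen and Trp53inp1 overlapped, as did those of Trp53inp1 and Tnfrsf10b, and those of Apaf1, Eda2r, Pmaip1 and Bbc3. In Prmt5 KO the order was Bax at 69.0 ± 25.2 CPM per kilobase, Perp at 41.1 ± 8.997, Aen at 21.7 ± 2.48, Trp53inp1 at 20.4 ± 9.09, Eda2r at 11.3 ± 3.14, Tnfrsf10b at 11.02 ± 1.43, Apaf1 at 6.30 ± 3.17, Bbc3 at 2.22 ± 1.27 and Pmaip1 at 1.73 ± 0.837 (SD, n = 4). Eda2r thus moved from the seventh place to the fifth, where its range overlapped those of Trp53inp1 and Tnfrsf10b. Bax and Perp, which did not overlap in Control, did so in Prmt5 KO. In Prmt5 KO the ranges of Aen and Trp53inp1 also overlapped, as did that of Apaf1 with those of Eda2r and Tnfrsf10b. The BH3-only genes had the lowest means in both groups, but in Control their ranges overlapped those of Apaf1 and Eda2r. The place of Aen depended on the transcript used, Aen-204 of 4428 bases. The coding Aen-201, of 2007 bases, was at 53.8 ± 13.5 CPM across Control and 85.7 ± 13.5 CPM across Prmt5 KO (SD, n = 4 each). Per kilobase of Aen-201 the level of Aen would be higher.

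Other genes of the pathway were read from lists in the same way. Of 8 genes for p53 and its regulators 7 were tested, and 1 rose and 0 fell in edgeR (0.0273% of all genes called), with a median log2 fold change of 0.43. At an unadjusted p under 0.05, 4 of the 7 were higher (4.47% of all genes), and in 3 all Prmt5 KO lay above all Control libraries (2.63% of all genes). The gene that rose was Mdm2, which encodes the ubiquitin ligase that restrains p53, at 120 ± 13.5 CPM across Control and 254 ± 24.3 CPM across Prmt5 KO (SD, n = 4 each; adjusted p = 0.0490). Its call held in 5 of 21 alternatives and in 0 of the 8 fits that dropped a single library, with a log2 fold change between 1.03 and 1.19 throughout. Of 28 p53 targets of arrest, growth signalling, metabolism and repair 26 were tested, and 1 rose and 0 fell, with a median of 0.65, 9 higher at an unadjusted p under 0.05 (4.47% of all genes) and 7 with all Prmt5 KO above all Control libraries (2.63% of all genes). That 1 gene was Ccng1, which encodes cyclin G1, at 55.7 ± 9.10 and 219 ± 22.8 CPM (SD, n = 4 each; edgeR adjusted p = 0.00137). Of 14 further p53 targets in death and autophagy 10 were tested and 0 passed in edgeR (0.0273% of all genes), with a median of 0.16. Of these, 0 had an unadjusted p under 0.05 in either direction (8.15% of all genes). In 1 of the 10 all Prmt5 KO lay above all Control libraries (2.63% of all genes). In that list Bid, which links death receptors to mitochondria, was at a log2 fold change of -0.46 (edgeR adjusted p = 0.651) and Ei24, of the endoplasmic reticulum, at 0.39 (edgeR adjusted p = 0.651). Exons of Bid overlap those of Bcl2l13 on the opposite strand, so its value is uncertain.

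Markers of other cells are given for the libraries behind these values. Of 13 somatic gonad markers 7 were tested and 0 passed in edgeR (0.0273% of all genes), with a median log2 fold change of 2.30 and 3 higher at an unadjusted p under 0.05 (4.47% of all genes). Acta2, of smooth muscle, was at 208 CPM and Col1a1, a collagen gene, at 92.9 CPM in Prmt5 KO 1, while in the other libraries they ran from 2.71 to 7.13 and from 1.74 to 6.25 CPM. Mfge8 was the most abundant marker, at 145 ± 27.2 and 167 ± 10.8 CPM (SD, n = 4 each), and Tcf21 had a count in Prmt5 KO 1 alone. Of 7 endothelial markers 4 were tested and 0 passed, with Pecam1 at 283 ± 46.1 and 276 ± 46.2 CPM (SD, n = 4 each), Egfl7 at a log2 fold change of -1.18, Tek at 2.05, and Kdr with no listed count in 7 of the 8 libraries. The summed level of the endothelial list ran from 286 to 364 CPM in Control and from 307 to 399 CPM in Prmt5 KO. Pecam1 made up most of that sum in every library, from 241 to 345 CPM in Control and from 215 to 322 CPM in Prmt5 KO. Cdh5 reached at most 5.80 CPM and Emcn at most 0.169 CPM in any library. Of 7 blood markers 1 was tested, Csf1r, at 33.8 ± 9.42 and 23.7 ± 14.2 CPM (SD, n = 4 each), and the leukocyte gene Ptprc had a count in Prmt5 KO 3 alone, at 0.149 CPM. Of 12 genes of dissociation stress 6 were tested and 0 passed in edgeR (0.0273% of all genes), with Klf4 at a log2 fold change of -1.47 and Egr1 at -0.46. The values of Csf1r, with exon bases in common with Hmgxb3, and of Egfl7, with Gm20532 and Agpat2, are uncertain. The germ cell markers Dazl and Nanog were at log2 fold changes of -0.61 and 0.24 and did not pass. With Prmt5 KO 1 left out, the log2 fold changes of Eda2r, Perp, Aen, Trp53inp1 and Apaf1 were 2.09, 1.03, 0.75, 1.42 and 1.35, and the part of these cells in the members' values was otherwise not tested.

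**Figure D4:**
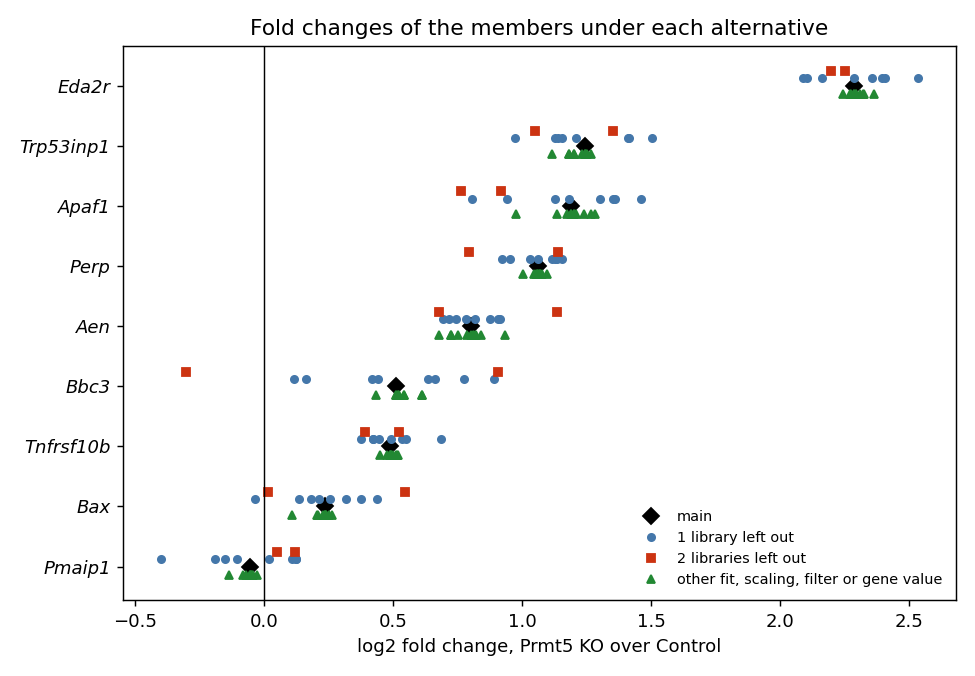
Log2 fold change of each member (x axis) in the fit reported (black) and under 21 alternatives: 1 library left out (blue), 2 left out (red), and other fits, scalings, filters or gene values (green). Eda2r stays between 2.09 and 2.53, the next 4 members stay above 0, and Bbc3, Bax and Pmaip1 each cross 0 under at least 1 alternative.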

How the data were processed

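RNA was measured in 8 libraries of sorted germ cells, each from 50 pg of RNA by a published low-input method, per the labels' protocols. The files the authors deposited hold read counts per Ensembl transcript, listing transcripts with at least 1 count. The submitters' processing notes list GRCm38 and mm10 as builds. Aligner, counter, annotation release and strand setting: not given in the sources used here.

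Transcripts were matched to GENCODE M21 on GRCm38: 64258 of 66262 identifiers matched, and the rest held at most 1.90% of a library's counts. Each gene took the count of whichever transcript had most counts in all 8 libraries together. Low genes were removed with filterByExpr of edgeR (count at least 10, total at least 15), and the rest were scaled by TMM and compared with edgeR's robust quasi-likelihood test with Benjamini-Hochberg adjustment over all genes at 0.05. A standard error was the log2 fold change divided by the square root of F, and 95% intervals used the test's degrees of freedom. Background shares are those over all genes tested. The members and gene lists were chosen with earlier results of these data known. Beside the members, each list is given by its counts, any gene called, otherwise the 2 tested genes of lowest unadjusted p, plus the top marker by level for a cell type. Some further markers are named for how scarce they were.

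On simulated counts for this comparison (10734 genes, 100 changed by each fold) the test called 24% at a 2-fold change and 75% at a 4-fold change. It called 5 of 10534 genes left unchanged. The changed genes were drawn from the more abundant ones, so the rates at these folds do not cover genes as scarce as Bbc3 and Pmaip1. Alternatives covered scaling, tool, filter, robust estimation, replicate block, left-out libraries and gene value. No 2 libraries were duplicates. Promoter windows were from RefSeq. The tools were edgeR 4.0.16, DESeq2 1.42.0 and limma 3.58.1 in R 4.3.3, with figures from matplotlib 3.10.9.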

Additional observations from a re-analysis of the deposited data

Results flagged for a closer look

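A search of 40 sets of 4 values (members and summed gene lists, by group) for 1 library distant from its group singled out 2 sets, where chance gives about 1 in 20, or 2. No member had such a library. The summed level of the somatic gonad markers was 773 CPM in Prmt5 KO 1, far above the other Prmt5 KO libraries. The summed level of the mitochondrial partners was 416 CPM in Prmt5 KO 4, below the other 3 Prmt5 KO libraries, which lay between 447 and 454 CPM.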

How the results depend on the processing

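No member was called in 19 of 21 alternatives. DESeq2 called 3 members and 107 genes, and edgeR with no filter called 1 member and 7 genes, where the reported fit called 0 and 3. The count of genes called was 1 with limma voom, with sums over transcripts and with means over transcripts, and 0 when both shallow Control libraries (2 and 3) were dropped. Dropping Prmt5 KO 1 together with 4 left 1 gene. Leave-one-out counts lay between 1 and 2. Ccng1 was called in 20 of 21 alternatives (not with both shallow Control libraries dropped, adjusted p = 0.176), Prmt5 in 8 and Mdm2 in 5, and with the replicate block the last 2 were at adjusted p = 0.130 and 0.155 in edgeR. The members without overlap of the groups numbered between 3 and 5 in leave-one-out fits, the highest without Control 4. In those fits the share of all genes higher without overlap also rose, from 2.63% to between 3.89% and 4.63%. It was 4.03% without Control 4. Members at an unadjusted p under 0.05 numbered 4 or 5 throughout, beside between 2.97% and 5.63% of all genes that were higher. Apaf1 was the member lost wherever the count was 4. Eda2r, Perp, Aen, Trp53inp1, Apaf1 and Tnfrsf10b kept their direction in all 21 alternatives.

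Bax reversed to -0.034 without Prmt5 KO 2, with leave-one-out values from there to 0.44. Bbc3 reversed to -0.30 without Prmt5 KO 1 and 4. Pmaip1 reversed to 0.13 without Control 2, 0.02 without Control 4, 0.12 without Prmt5 KO 2 and 0.11 without Prmt5 KO 4, within a leave-one-out range from -0.40 to 0.13. It was 0.049 with both shallow Control libraries dropped and 0.12 with the pair Prmt5 KO 1 and 4 dropped. Bbc3 and Pmaip1 were not tested under the stricter filter. The cause of these shifts was not tested.

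With the replicate block 1 gene and 0 members were called. Same-numbered libraries correlated between 0.00226 and 0.0694, and 3 of 4 Control libraries matched their own number best. The reported fit did not take the numbers as pairs, and whether they mark pairs or a batch cannot be told from the labels. Depth limits Bbc3 and Pmaip1 most, at 40 and 75 counts over the Control libraries.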
